A study of Mus musculus with 2 samples.

Results

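A set of 10 genes, of 27962 gene names on the array, that carry fatty acids into the cell, bind them in the cytoplasm and activate them to acyl-CoA were followed in apoE-KO livers under normal chow and under a high-Chol diet. They were the transporters Slc27a2, Slc27a4 and Slc27a5, the long-chain acyl-CoA synthetases Acsl1, Acsl3, Acsl4 and Acsl5, and the fatty acid-binding proteins Fabp1, Fabp4 and Fabp5. Members were listed by name, with earlier results of these data known, and were read by 18 of the 41174 probes of the array. Slc27a2, Slc27a5, Acsl1, Acsl5 and Fabp1 were taken as the isoforms of hepatocytes, Fabp4 and Fabp5 as those of macrophages, and Slc27a4, Acsl3 and Acsl4 as isoforms of many cell types.

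Male C57BL/6 mice lacking apolipoprotein E received normal chow or that chow with 1.25% Chol for 1 week from 10 weeks of age. Every mouse, those on normal chow included, carried the Apoe disruption, so no group with normal Apoe was compared. RNA of the whole liver was labelled with 1 dye and hybridised to 6 Agilent arrays, 3 per diet. The arrays of a diet came from independent experiments, but the labels do not tie them to single animals, so p-values measure only the spread between these arrays.

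Long-chain fatty acids are taken up with the help of membrane proteins such as the Slc27a family, several of which also join the fatty acid to coenzyme A. The Acsl enzymes carry out this activation, without which a fatty acid can be neither oxidised nor esterified, and the Fabp proteins shuttle fatty acids through the cytoplasm. Fabp1 is the abundant binding protein of hepatocytes, whereas Fabp4 is known from adipocytes, macrophages and capillary endothelium and Fabp5 from the epidermis and macrophages.

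Each signal is given as log2 of the background-subtracted spot intensity relative to the 75th percentile of its array, so that 0 is the level of the 75th percentile and a difference of 1 is 2-fold. That percentile lay between 271 and 373 intensity units on the 3 normal chow arrays and the first high-Chol array, which shared a slide, and at 799 and 762 on the other high-Chol arrays, which were on another slide. Slides were inferred from the scan identifier that arrays share in the scanner output. The share of spots well above background ran from 50.5% to 67.2%. Since slide 2 held only high-Chol arrays, its effect and that of the diet cannot be told apart there, and the difference within slide 1 (the first high-Chol array against the 3 normal chow arrays) is therefore given beside the results. The image software differed in the same way, version 9.5 for slide 1 and 9.1 for slide 2. A fit with slide as a block takes the diet difference from slide 1 alone, so each value and each lost call in it rests on 1 high-Chol array. The probe of Apoe gave 3.31, 1.66 and 3.81 on normal chow and 3.20, 3.18 and 3.56 with the high-Chol diet. Its place relative to the disruption was not tested, so it does not check the genotype.

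The results turn on Fabp4, which has 3 probes, and on Fabp1, so 3 of their probes are shown first, in lower case and 5′ to 3′ on the strand of the gene, with positions of the array annotation (mm7). The probe of Fabp1 lies at chr6:71222913-71222972 (plus strand). The second Fabp4 probe has 60 bases that span 730 bases of the genome at chr3:10212718-10213447 (minus strand), and the third Fabp4 probe lies at chr3:10216627-10216686 (minus strand).
Fabp1: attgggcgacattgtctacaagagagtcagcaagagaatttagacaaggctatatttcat
Fabp4, the second probe: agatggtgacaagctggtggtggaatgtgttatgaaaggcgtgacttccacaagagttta
Fabp4, the third probe: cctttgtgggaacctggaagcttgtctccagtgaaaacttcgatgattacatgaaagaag

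The brightest probe of each transporter is shown to let a reader see how far the family members can be told apart by hybridisation, with the 5 bases in capitals that all 3 probes share. They lie at chr2:126328667-126328726 (Slc27a2, plus strand), chr2:29822906-29822965 (Slc27a4, plus strand) and chr7:11575156-11575215 (Slc27a5, minus strand) of mm7. Placed on the shared stretch, the probes of Slc27a2 and Slc27a4 were identical at 59.1% of 44 overlapping bases, those of Slc27a2 and Slc27a5 at 54.2% of 24, and those of Slc27a4 and Slc27a5 at 45.0% of 40. The longest run shared by any pair was 8 bases.
Slc27a2: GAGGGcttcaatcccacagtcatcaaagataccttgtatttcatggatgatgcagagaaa
Slc27a4: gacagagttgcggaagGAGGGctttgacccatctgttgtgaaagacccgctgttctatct
Slc27a5: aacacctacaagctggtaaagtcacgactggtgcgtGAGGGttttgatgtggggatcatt

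Of the 10 genes, 9 passed the filter on low values (well above background on every array of at least 1 diet), as did 16 of the 18 probes, and Fabp5 did not. By limma with Benjamini-Hochberg adjustment over all 16730 genes that passed, 0 of the 9 were called at an adjusted p of 0.05, against 2.92% of all genes tested, and 0 were called with slide as a block, against 0.0658%. At an unadjusted p under 0.05, limma gave 1 gene higher on the high-Chol diet (Fabp4) and 4 lower (Fabp1, Slc27a5, Slc27a4 and Acsl4), against 12.3% and 8.83% of all genes. Run on the same values, the methods' t-test called Fabp4 higher and Fabp1 and Acsl4 lower without adjustment, against 8.38% and 8.3% of all genes, and 0 of the 9 after Benjamini-Hochberg adjustment. A change of more than 1.5-fold was measured for 1 gene in each direction, Fabp4 higher and Slc27a4 lower, against 15.4% and 5.84% of all genes. The mean was lower on the high-Chol diet for 7 of the 9 genes, against 52.2% of all genes, and the median difference was −0.34 for the 9 genes and −0.023 for all genes. The plot of the signal on each array shows the brightest probe of every gene.

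**Figure D1:**
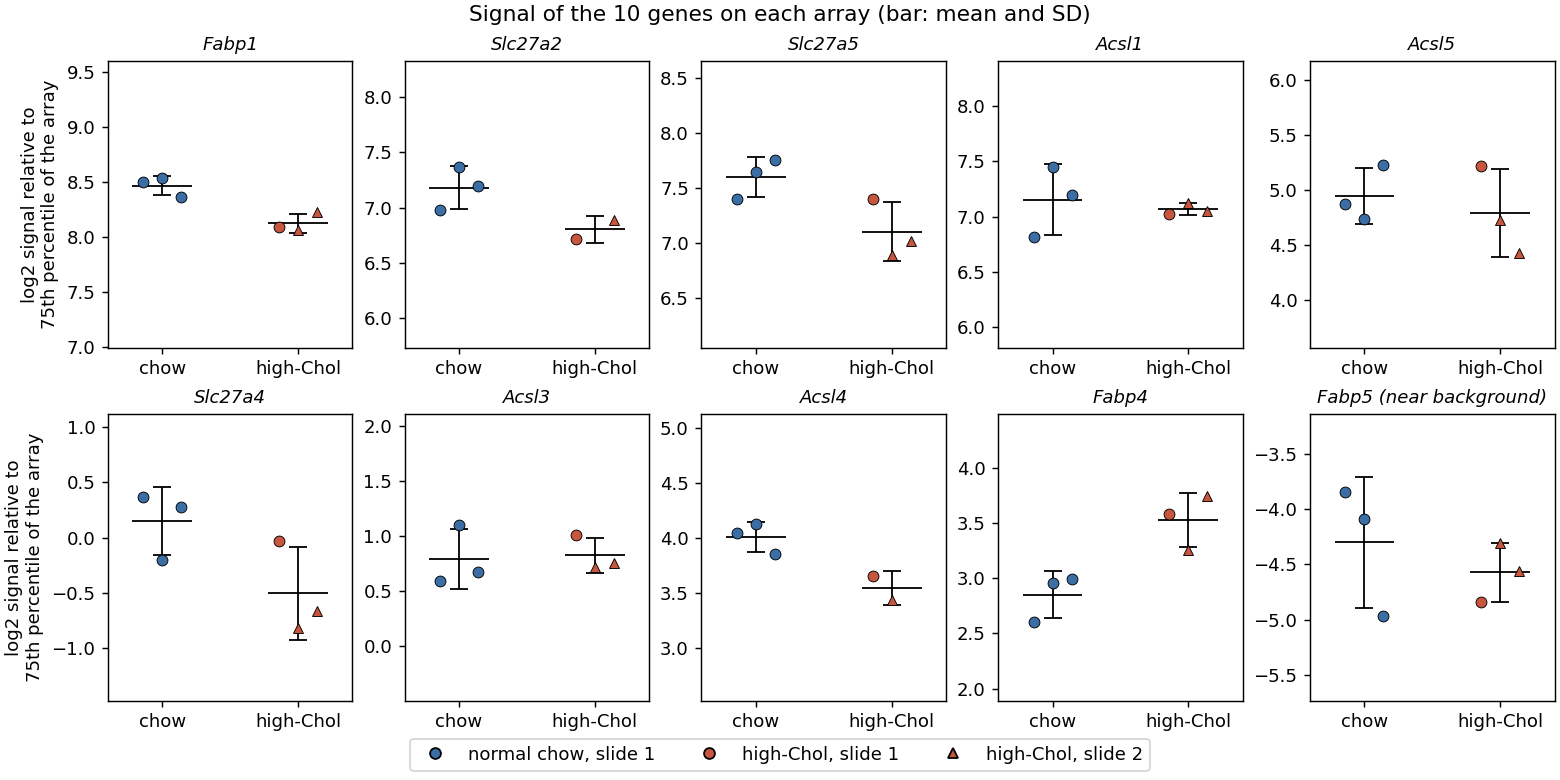
Log2 signal relative to the 75th percentile of the array (vertical axis, with the same span in each panel) for the brightest probe of each of the 10 genes, on normal chow and the high-Chol diet. Circles are arrays of slide 1 and triangles arrays of slide 2, and lines with bars are means and SD (n = 3, or 2 where a spot was marked as an outlier). Fabp4 lies higher and Fabp1 lower on all 3 high-Chol arrays, whereas Acsl1, Acsl3 and Acsl5 overlap between the diets.

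Among the transporters, the signals of all 3 genes were lower in the mean on the high-Chol diet, and none passed the test. Slc27a2, a transporter of liver and kidney that also activates very long-chain fatty acids, gave 6.98, 7.37 and 7.20 on normal chow, against 6.71 and 6.89 on the first and the last high-Chol array, its spot on the other array being left out as an outlier. The 2 measured high-Chol values lay below all normal chow values, with a log2 difference of −0.38 ± 0.19 (SE, n = 3 and 2, limma adjusted p = 0.312) and −0.47 within slide 1. The second Slc27a2 probe gave 3.10, 2.92 and 3.33 on normal chow and 2.79, 2.64 and 2.77 with the high-Chol diet, again without overlap and with a difference of −0.38 (−0.33 within slide 1). A further probe that the array annotation names Slc27a2 was not well above background on any array.

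Slc27a5, the liver-specific member of the family that also joins bile acids to coenzyme A, gave 7.40, 7.64 and 7.75 on normal chow and 7.40, 6.89 and 7.02 with the high-Chol diet. The first high-Chol array stood at the lowest normal chow array, and the 2 arrays of slide 2 stood below it. The log2 difference was −0.49 ± 0.19 (SE, n = 3 and 3, limma adjusted p = 0.212) over all arrays and −0.19 within slide 1.

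Slc27a4, a transporter of many tissues, gave 0.37, −0.21 and 0.28 on normal chow and −0.03, −0.82 and −0.66 with the high-Chol diet. Its first high-Chol array lay among the normal chow arrays, and the log2 difference of −0.65 ± 0.26 (SE, n = 3 and 3, limma adjusted p = 0.222) was −0.18 within slide 1. Its other probe, well above background on 5 of 6 arrays, gave −0.11. Without the first high-Chol array, Slc27a4 (−0.89, limma adjusted p = 0.036) and Slc27a5 (−0.64, limma adjusted p = 0.046) were called lower, 2 of the 9 genes against 4.42% of all genes in that fit. With that array left out the high-Chol diet is represented by slide 2 alone, and slide and diet cannot be told apart in it.

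Among the synthetases, Acsl1, the main isoform of hepatocytes, gave 6.82, 7.45 and 7.19 on normal chow and 7.02, 7.13 and 7.05 with the high-Chol diet. The high-Chol values lay within the range of normal chow, and the log2 difference was −0.087 ± 0.19 (SE, n = 3 and 3, limma adjusted p = 0.806) and −0.13 within slide 1. The 2 dimmer Acsl1 probes disagreed with it in size, with differences of −0.51 and −0.46 (−0.19 and −0.49 within slide 1), of which the last was without overlap between the diets. Acsl5, known from liver and intestine, gave 4.88, 4.74 and 5.23 on normal chow and 5.22, 4.73 and 4.43 with the high-Chol diet. Its groups overlapped, and its difference was −0.16 over all arrays and 0.27 within slide 1.

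Acsl4, which prefers arachidonic acid, gave 4.05, 4.12 and 3.85 on normal chow, against 3.66 and 3.44 on the first and the second high-Chol array, its spot on the last array being left out as an outlier. Its log2 difference was −0.46 ± 0.18 (SE, n = 3 and 2, limma adjusted p = 0.229) and −0.35 within slide 1. The second Acsl4 probe had a value on each array, 1.99, 1.84 and 1.79 on normal chow against 1.49, 1.11 and 1.497 on the high-Chol diet, without overlap and with a difference of −0.51 (−0.38 within slide 1). Acsl3, an isoform of the endoplasmic reticulum and lipid droplets, gave 0.59, 1.10 and 0.68 against 1.01, 0.72 and 0.76, with overlap and a difference of 0.038 ± 0.19 (SE, n = 3 and 3, limma adjusted p = 0.917) and 0.22 within slide 1.

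Among the binding proteins, Fabp1 gave 8.50, 8.53 and 8.37 on normal chow and 8.09, 8.06 and 8.22 with the high-Chol diet. Every high-Chol array lay below every normal chow array, as it did for 14% of all genes with 6 values. The difference of −0.34 ± 0.14 (SE, n = 3 and 3), or 1.27-fold, had a limma adjusted p of 0.232, and within slide 1 it was −0.38.

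Each of the 3 Fabp4 probes gave a higher signal on all high-Chol arrays than on any normal chow array. The brightest gave 2.61, 2.96 and 3.00 on normal chow and 3.58, 3.26 and 3.74 with the high-Chol diet, a difference of 0.67 ± 0.19 (SE, n = 3 and 3, limma adjusted p = 0.131) or 1.60-fold. The second gave 2.64, 2.63 and 2.72 against 3.35, 3.15 and 3.52, a difference of 0.68. The third, which lies outside the span of the second, gave −3.10, −2.74 and −2.90 against −2.15, −1.98 and −1.83, a difference of 0.92. Within slide 1 the 3 differences were 0.73, 0.69 and 0.76, as large as over all arrays for the first and the second probe. Of all genes with 6 values, 11.9% were without overlap and higher on the high-Chol diet.

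When every probe was tested by itself (23917 probes that passed the filter), the third Fabp4 probe was called higher (limma adjusted p = 0.042) and the second (limma adjusted p = 0.085) and the brightest (limma adjusted p = 0.139) were not, against 2.36% of all probes called higher. The call of the third probe did not survive leaving out any array but the first of the high-Chol diet, the adjusted p being 0.117, 0.121 and 0.122 without the first, second and last normal chow array and 0.174 and 0.137 without the second and the last high-Chol array, with differences from 0.83 to 1.01. Without the first high-Chol array the second probe was called higher as well (limma adjusted p = 0.045). In that fit slide 2 alone stands for the high-Chol diet, so slide and diet cannot be told apart. The call of the third probe was also lost in the fit blocked by slide (0.76, limma adjusted p = 0.401), with scaling to the median (0.69, limma adjusted p = 0.122) and with quantile normalization (0.73, limma adjusted p = 0.084). The difference of the third probe was −0.13 with a normexp background, under which the other 2 probes kept differences of 0.93 and 0.88. Since 3 probes of 1 gene share their RNA, they are not 3 replicates of the diet.

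**Figure D2:**
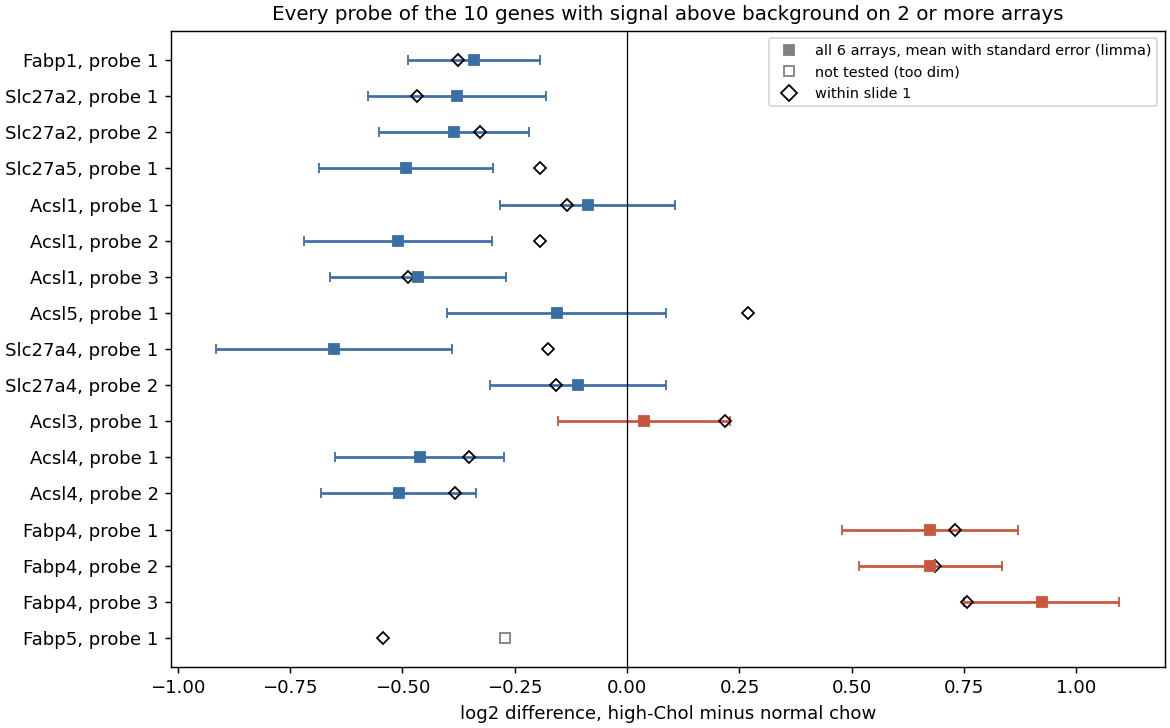
Log2 difference between the diets (horizontal axis, high-Chol minus normal chow) for each probe of the 10 genes that was well above background on 2 or more arrays, probes of a gene ordered by brightness. Filled squares with bars are differences over all 6 arrays with the standard error of limma, open diamonds are differences within slide 1, and the open square is the Fabp5 probe, which was not tested. The 3 Fabp4 probes lie from 0.67 to 0.92, and all 8 tested probes of the hepatocyte isoforms lie below 0 as scaled to the 75th percentile, against 52.8% of all probes tested, and 3 of the 7 with a value on each array lie there without overlap, against 13.3% of all probes.

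Fabp5, the other isoform named for macrophages, was not measured well enough to be set beside Fabp4. Its single probe gave −3.84, −4.09 and −4.97 on normal chow and −4.84, −4.31 and −4.56 with the high-Chol diet, and was well above background on 1 array of each diet. The groups overlapped, the measured difference was −0.27 (−0.54 within slide 1), and no test was made. The macrophage isoforms are therefore described by Fabp4 alone, and whether the Fabp5 probe reads the mature transcript was not tested.

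To set the isoforms against each other without the scaling of the array, the log2 signal of a hepatocyte isoform was subtracted from that of its relative on the same array. Such a value mixes the brightness of 2 probes, so only its change between the diets is read. Fabp4 minus Fabp1 was −5.89, −5.57 and −5.37 on normal chow and −4.51, −4.81 and −4.48 with the high-Chol diet. All 3 high-Chol arrays lay above all 3 normal chow arrays, by 1.02 in the mean or 2.02-fold. The two-sided exact permutation test gave p = 0.1, the smallest that 3 arrays against 3 allow, and 0.4 after Benjamini-Hochberg adjustment over the 4 differences computed. Within slide 1 the shift was 1.10. Scaling by a constant, the filter and the choice of test cannot change a difference between 2 probes of an array. Over the alternatives that can change it (normexp, quantile normalization, the mean of probes, slide as a block and arrays left out) it ran from 0.87 to 1.14.

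Acsl4 minus Acsl1 was −2.77, −3.33 and −3.34 on normal chow, against −3.36 and −3.69 for the 2 measured high-Chol arrays. Both high-Chol values lay below every normal chow value, the higher of them close to the lowest of normal chow, and the shift was −0.38 (exact permutation p = 0.4), −0.22 within slide 1 and −0.19 without the first normal chow array. The remaining pairs overlapped between the diets. Fabp5 minus Fabp1 shifted by 0.069 (exact permutation p = 1) and by −0.17 within slide 1, with Fabp5 near background, and Slc27a4 minus Slc27a5 by −0.16 (exact permutation p = 0.7) and by 0.018 within slide 1. Whether the pairs differ from each other was not tested.

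**Figure D3:**
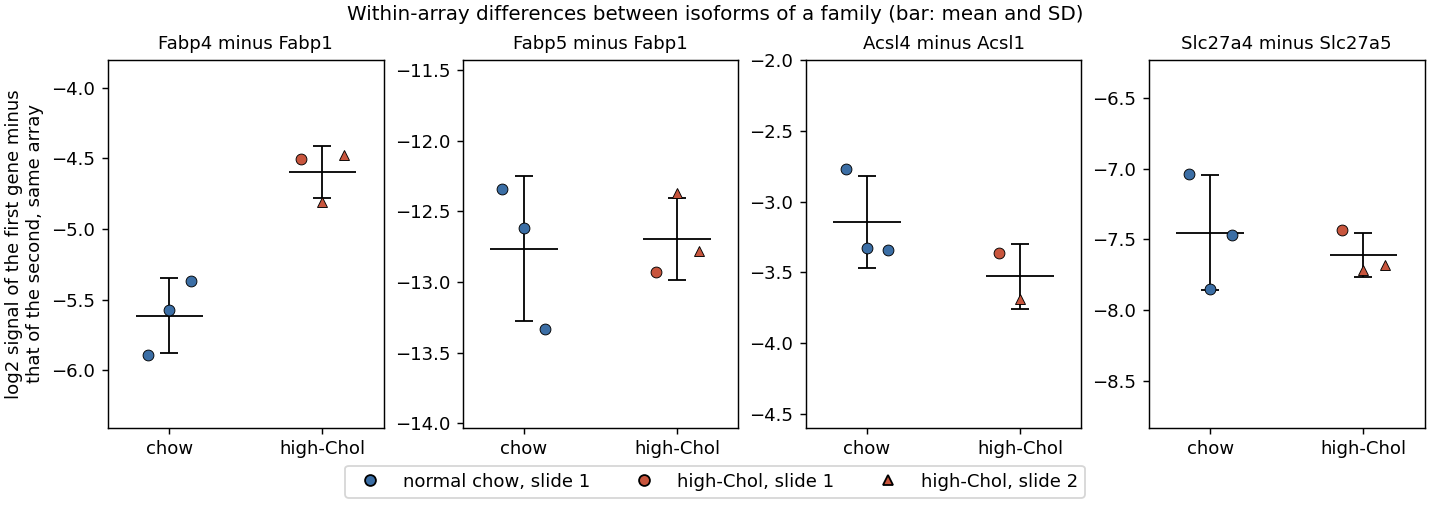
Log2 signal of an isoform minus that of its hepatocyte relative on the same array (vertical axis), for 4 pairs of genes on normal chow and the high-Chol diet. Circles are arrays of slide 1 and triangles arrays of slide 2, and lines with bars are means and SD (n = 3, or 2 for Acsl4 minus Acsl1 on the high-Chol diet). Fabp4 minus Fabp1 is apart between the diets by 1.02 in the mean, the 2 high-Chol values of Acsl4 minus Acsl1 lie just below those of normal chow, and the pairs Fabp5 minus Fabp1 and Slc27a4 minus Slc27a5 overlap.

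The sign of the small differences moved with how the arrays were made comparable. Scaling to the median moved the median difference of all genes to −0.26, against −0.023 with the 75th percentile, −0.018 after quantile normalization and −0.11 after normexp correction of the background. The brightest Fabp4 probe was higher under all 4, with differences from 0.44 to 0.93 (the third probe turned with the normexp background, as given above), and Slc27a5, Slc27a4 and Acsl4 were lower under all 4. Fabp1 was lower under 3 of them (−0.58 to −0.19) and at 0.051 with the normexp background, where Slc27a2 was at 0.20, Acsl1 at 0.21 and Acsl5 at 0.14. The count of genes with a lower mean was 7 of 9 as scaled here, 8 with the median, 5 after quantile normalization and 3 after normexp correction. Of the 5 hepatocyte isoforms, Slc27a5 alone was lower under all 4, at −0.11 with the normexp background, where the median of all genes was −0.11 too.

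**Figure D4:**
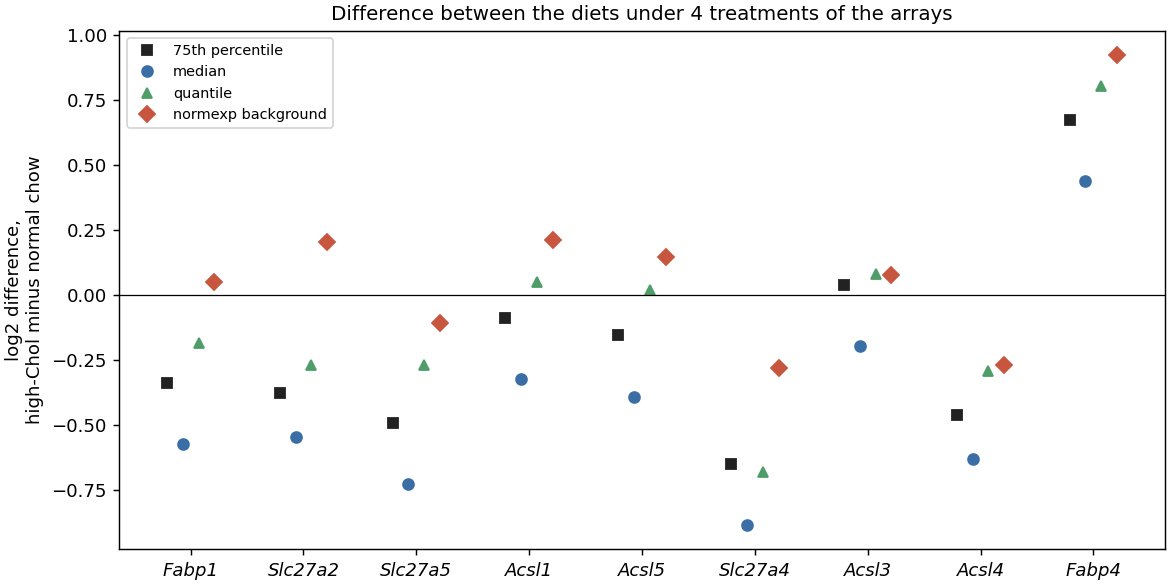
Log2 difference between the diets (vertical axis, high-Chol minus normal chow) for the brightest probe of the 9 tested genes under 4 ways of making the arrays comparable, each with its own symbol. Fabp4 lies above 0 and Slc27a5, Slc27a4 and Acsl4 below 0 under all 4, while Fabp1, Slc27a2, Acsl1, Acsl5 and Acsl3 change side.

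Of 44 other genes of uptake, binding, activation and acyl-CoA hydrolysis, 43 were found on the array and 34 were tested, with a median difference of −0.17. By limma 1 of them was called higher and 0 lower, against 2.69% and 0.227% of all genes, and at an unadjusted p of 0.05 the counts were 6 and 2, against 12.3% and 8.83%. Without adjustment, 4 were called higher and 3 lower by the methods' t-test, against 8.38% and 8.3%, and 0 with it. The gene called was Fabp7, the binding protein of the developing brain, which gave 1.20, 0.31 and 0.48 on normal chow and 2.22, 2.39 and 2.35 with the high-Chol diet, a difference of 1.66 ± 0.25 (SE, n = 3 and 3, limma adjusted p = 0.020) or 3.16-fold. Its call was lost with slide as a block (difference 1.56, limma adjusted p = 0.233), without the second (1.48, adjusted p = 0.093) or the last (1.57, adjusted p = 0.077) normal chow array and without the second (1.63, adjusted p = 0.103) or the last (1.64, adjusted p = 0.075) high-Chol array.

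Cd36, a fatty acid transporter of the plasma membrane that also takes up modified lipoproteins, gave 0.50, 1.16 and 1.72 on normal chow and 1.64, 3.03 and 3.04 with the high-Chol diet. The first high-Chol array lay below the highest normal chow array, and the difference was 1.44 ± 0.46 (SE, n = 3 and 3, limma adjusted p = 0.160) over all arrays but 0.51 within slide 1. Without that array Cd36 was called higher (1.91, limma adjusted p = 0.016), as were 3158 of all 17773 genes in that fit. The high-Chol diet is then represented by slide 2 alone, and slide and diet cannot be told apart. Acss1, the mitochondrial acetyl-CoA synthetase, was 1.48 ± 0.31 higher without overlap (SE, n = 3 and 3, limma adjusted p = 0.057), 0.88 within slide 1 and −0.026 with a normexp background, and it passed the filter only through the high-Chol arrays. Without the first high-Chol array Acss1 was called higher (1.78, limma adjusted p = 0.006), again with slide 2 alone for the high-Chol diet. Because of the filter, neither its test nor this call is support. Dbi, the acyl-CoA-binding protein, differed by −0.29 ± 0.19 (SE, n = 3 and 3, limma adjusted p = 0.399) over all arrays and 0.0089 within slide 1, and Acsl6, a synthetase of brain, did not pass the filter on low values.

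Ppara, the nuclear receptor through which fatty acids induce Fabp1, Acsl1 and other genes of this set in hepatocytes, gave 3.996, 4.65 and 4.54 on normal chow and 3.26, 3.23 and 3.89 with the high-Chol diet. The groups did not overlap, and the difference was −0.94 ± 0.26 (SE, n = 3 and 3, limma adjusted p = 0.121) and −1.14 within slide 1. Receptors of this class bind paired copies of the letters AGGTCA, which were searched on both strands from 250 bases before to 50 bases after each start in RefSeq (GRCm38.p6). Of the 10 genes, 7 had such an entry, with 8 starts, and AGGTCA was found for Fabp1 and Slc27a2, against 16.26% of 32851 starts of all genes. Its paired form AGGTCANAGGTCA was found for none of the 8 and for 0.04% of all starts. Only exact matches were searched, so a pair with a differing letter was not counted.

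The 80 bases before the start of Fabp1 (chr6:71199799-71199878, plus strand, GRCm38.p6) are shown because they hold 2 copies, beginning 67 and 9 bases before the start on the other strand and so printed as TGACCT. The capitals mark these copies and TATAAA, 30 bases before the start, which 13.62% of all starts hold. The first printed TGACCT is followed, past the base a, by tggcct, which is not an exact copy and was left unmarked. A match of letters is a description of the sequence and not a site of binding.
Fabp1, before the start: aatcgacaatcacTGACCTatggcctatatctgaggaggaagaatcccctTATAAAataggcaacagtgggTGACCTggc

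Since the liver was taken whole, fewer cells of a type and less RNA per cell cannot be told apart, and markers of its cell types were read on the same arrays. All 8 hepatocyte markers were tested, Alb and Hnf4a among them, and 7 of 8 were lower in the mean, with a median of −0.32 beside −0.34 for the 5 hepatocyte isoforms. Ttr went the other way without overlap, by 0.48 (limma adjusted p = 0.202) and by 0.18 within slide 1. Of the 8, 5 were lower without overlap, against 14% of all genes, and 1 was higher, against 11.9%. No hepatocyte marker was called by limma. At an unadjusted p under 0.05, 1 was higher and 2 were lower, against 12.3% and 8.83% of all genes. Without the first high-Chol array 1 was called higher and 1 lower, against 3158 and 785 of 17773 genes in that fit. The summed linear level of the markers (1 being the 75th percentile) ran from 2677 to 2789 on normal chow and from 1984 to 2286 on the high-Chol diet. The marker median was −0.028 with a normexp background, −0.11 with quantile normalization and −0.56 with scaling to the median. The part of hepatocyte content in the lower signals of Fabp1 and the other hepatocyte isoforms was not tested.

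Of 11 macrophage markers 10 were tested and 10 were higher in the mean, with a median of 0.85, and Itgam did not pass the filter. The markers Cd68, Lyz2, Mpeg1 and Msr1 were called higher, 4 of 10 against 2.69% of all genes, with differences of 1.74, 1.78, 1.01 and 1.55 (1.66, 1.32, 0.86 and 1.49 within slide 1). The summed level of the markers with 6 values ran from 84.5 to 105 on normal chow and from 206 to 303 on the high-Chol diet. The count of macrophage markers called was 1 without the second or the last normal chow array and without the second or the last high-Chol array, 3 without the first normal chow array, 6 without the first high-Chol array, and 0 with slide as a block or a normexp background, while all stayed higher in the mean. Of 6 Kupffer cell markers, Marco (1.83, and 1.99 within slide 1) and Cd5l (1.42, and 1.13 within slide 1) were called higher, against 2.69% of all genes. Their number called was 1 without the first or the second normal chow array, 3 without the first high-Chol array, and 0 without the last normal chow or the second or last high-Chol array, in the fit blocked by slide and after normexp correction. In the fit without the first high-Chol array, 3158 of all 17773 genes were called higher. Of the Kupffer cell markers, Cd163 went the other way without overlap, by −0.91 (limma adjusted p = 0.155) and by −1.17 within slide 1. Of 7 genes of lipid-associated macrophages, Trem2 (3.37) and Lgals3 (2.98) were called higher, with signal well above background on each of the 6 arrays, and in the fit blocked by slide they differed by 2.91 and 2.56 and were not called (limma adjusted p = 0.091 and 0.077). With a normexp background 0 genes of the list were called, and its median difference was 0.78 in place of 3.27. Gpnmb, Mmp12 and Itgax were called too but passed the filter only through the high-Chol arrays, so their calls are no support. The same holds for the list median of 3.27, which is the value of Itgax. Cd9 was higher by 0.59 and was not called (limma adjusted p = 0.126). Spp1 of the same list was lower without overlap, by −0.57 (limma adjusted p = 0.157) and by −0.30 within slide 1. Without the first high-Chol array it was called lower, as were 4.42% of all genes in that fit. The 3 Fabp4 probes differed by 0.67, 0.68 and 0.92 beside the macrophage marker median of 0.85, and within slide 1 by 0.73, 0.69 and 0.76 beside a marker median of 0.71, and the part of macrophages in the Fabp4 difference was not tested.

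Fabp4 is also a gene of adipocytes and capillary endothelium. Of 6 adipocyte markers, Adipoq, Lep, Retn and Adrb3 did not pass the filter on low values, and Plin1 and Cfd passed and overlapped between the diets. Plin1 passed only through the high-Chol arrays, and so did Retn and Adrb3 once the first high-Chol array was left out. In that fit 2 of the 4 adipocyte markers tested were called higher, against 3158 of 17773 genes, with a median of 2.14. Because of the filter, the values of Plin1, Retn and Adrb3 are no support. Cfd was well above background throughout and differed by 1.15 over all arrays and by −1.07 within slide 1. The part of adipocytes in the Fabp4 difference was not tested. Of 11 endothelial markers, 0 were called by limma. Their median was 0.084, and their summed level ran from 42.1 to 43.9 on normal chow and from 41.5 to 44.5 on the high-Chol diet. At an unadjusted p under 0.05, 1 was higher, against 12.3% of all genes. That marker was Cdh5, the cadherin of endothelial junctions, at 0.94 without overlap (limma adjusted p = 0.072) and 0.63 within slide 1. Of the 11, 3 were higher without overlap, against 11.9% of all genes, and 1 (Aqp1) was lower, against 14%. The part of endothelial cells in the Fabp4 difference was not tested. The endothelial median was −0.15 with scaling to the median. Without the first high-Chol array 1 endothelial marker was called higher, against 3158 of 17773 genes in that fit. For the 3 cholangiocyte markers the count called was 0 by limma, with a median of −0.47. At an unadjusted p under 0.05, 1 of them was lower, against 8.83% of all genes.

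**Figure D5:**
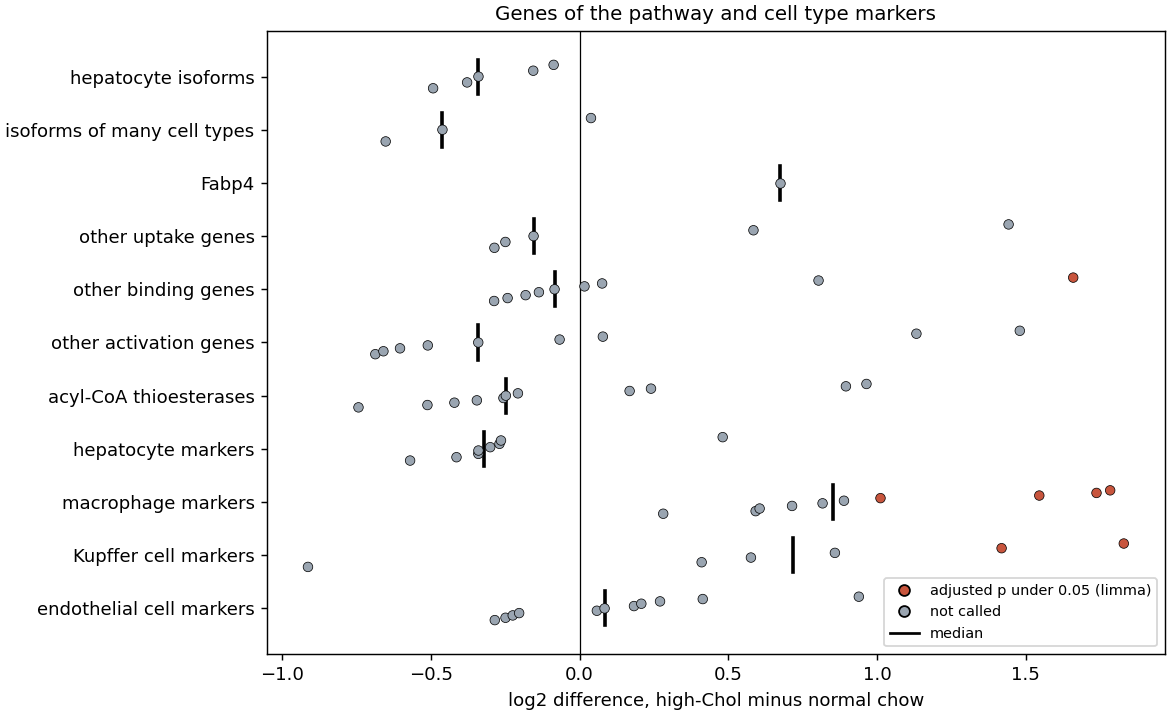
Log2 difference between the diets (horizontal axis, high-Chol minus normal chow) of each tested gene in the isoform groups, the other genes of the pathway and the cell type markers, a point per gene (brightest probe) and a line at the median. Filled red points had a limma adjusted p under 0.05. The hepatocyte isoforms lie around −0.34 beside hepatocyte markers around −0.32, and Fabp4 at 0.67 beside macrophage markers around 0.85.

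The genes whose pattern was most like that of Fabp4 over the 6 arrays, by the root mean square of the difference between log2 signals after the mean of each gene was taken off, were Mmp14 (0.0745), A730017D01Rik (0.120), Ssbp2 (0.145), Fut8 (0.148) and H2-M3 (0.153). They were found among 14043 genes well above background on all arrays. Mmp14, a membrane-bound matrix metalloproteinase, gave 2.07, 2.35 and 2.32 on normal chow and 2.86, 2.68 and 3.01 with the high-Chol diet. No such list is given for Fabp5, whose probe was not well above background on 4 of the 6 arrays.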

How the data were processed

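The authors deposited the scanner output of 6 Agilent arrays read in 1 colour, 3 per diet, with the background-subtracted intensity of each spot (Feature Extraction 9.5 for slide 1 and 9.1 for slide 2 per the file headers, 9.1 per the submitters' processing notes). They also deposited a log2 value per probe and diet, the authors' mean of 3 arrays, whose scaling matched the median of each array and whose centring was not stated. From the intensity, log2 was taken and the array's 75th percentile over 43379 non-control spots subtracted. Outlier spots were dropped (from 75 to 196 an array), saturated spots (0 to 5) were not, and repeated spots of a probe were averaged. The filter required signal well above background on each array of either diet, and a gene was read by its brightest probe. The test was limma 3.58.1 (lmFit, eBayes) under R 4.3.3 with no covariate, with Benjamini-Hochberg adjustment over 16730 genes and a threshold of 0.05, and it was checked on simulated data. The number of arrays limits the precision.

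The members, the gene lists (111 of 112 genes were matched to the array by symbol, accession or synonym) and the tests were chosen with earlier results of these data known. Named were all members with every probe, other pathway genes that were called or that differed by at least 1 without overlap, Cd36, Dbi, Acsl6 and Ppara in any case, the 5 genes most like Fabp4, Apoe, and marker genes. Names follow the array annotation, updated through RefSeq (GRCm38.p6), which also gave the sequences at gene starts.

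Alternatives tried were normexp background correction (offset 50), the median for scaling (floor of 5), quantile normalization, leaving the filter out or requiring all 6 arrays, averaging or separately testing the probes of a gene, slide entered as a block, arrays left out in turn, a trended and robust prior, the methods' t-test, and the values deposited by the authors. Those for Fabp7, Acss1, Cd36, Ppara, single Fabp4 probes and marker lists were chosen after seeing the data. Tables and figures were made with pandas 2.3.3, numpy 2.4.6 and matplotlib 3.10.9 in Python 3.11.15.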

Additional observations from a re-analysis of the deposited data

How the results depend on the processing

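The number of the 9 genes called was 0 in each direction as reported and under all alternatives but 3: 1 higher (Fabp4) with every probe by itself, 1 higher and 2 lower by the methods' t-test unadjusted, and 2 lower without the first high-Chol array, so that leaving out an array gave 0 higher and 0 to 2 lower. Differences that turned were those of Fabp1 (0.051), Slc27a2 (0.20), Acsl1 (0.21), Acsl5 (0.14) and Acss1 (−0.026) with a normexp background, Acsl1 (0.048) and Acsl5 (0.020) with quantile normalization, Acsl5 (0.27) with slide as a block, and Acsl3 (−0.20) with scaling to the median and (−0.20) in the authors' values. Leaving out an array turned Acsl1 (0.061 without the second normal chow array, range −0.26 to 0.061), Acsl5 (0.024 without the last high-Chol array, range −0.37 to 0.024) and Acsl3 (−0.061, −0.017 and −0.052 without the first or the last normal chow array or the first high-Chol array, range −0.061 to 0.19). Fabp5 minus Fabp1 was −0.85 with normexp, −0.46 with quantile normalization, −0.17 with slide as a block and −0.22 to 0.28 with an array left out. Acsl4 minus Acsl1 was −0.19 with the mean of probes and −0.54 to −0.19 with an array left out. Slc27a4 minus Slc27a5 was 0.11 with the mean of probes, 0.018 with slide as a block and −0.36 to 0.049 with an array left out. Fabp4 was higher and Slc27a5, Slc27a4 and Acsl4 lower under all alternatives for the brightest probe. The causes were not tested.

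Of all genes, 450 were called higher and 38 lower. The counts were 0 and 0 with normexp, 26 and 0 with no filter, 11 and 0 with slide as a block, 1402 and 1389 by the methods' t-test unadjusted and 4 and 1 after adjustment, and 42 to 3158 and 0 to 785 with an array left out (most without the first high-Chol array, fewest without the second normal chow array), and the number lower was 73 with scaling to the median and 89 with the trended prior. Of the other pathway genes, the number higher (1 as reported, Fabp7) was 0 with normexp, no filter, slide as a block and the adjusted t-test, 2 with scaling to the median, 3 with the filter for all 6 arrays, 4 with the trended prior and the unadjusted t-test, and 0 to 7 with an array left out. The number lower was 3 with the unadjusted t-test and 0 to 1 with an array left out. The deposited values, with no test, gave 0.43, 0.43 and 0.68 for the 3 Fabp4 probes, −0.58 for Fabp1, −0.65 for Slc27a2, −0.33, −0.75 and −0.71 for the 3 Acsl1 probes, the brightest first, and −0.40 for Acsl5. No paired analysis was possible because the labels name the replicates of a diet together and do not say which array carries which number. Fabp5 and the third Slc27a2 probe were limited by signal near background.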
